A study of Danio rerio with 4 samples.

Results

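Chromosome 4 of the zebrafish (Danio rerio) carries a long arm unlike the rest of the genome. It replicates late, is packed as heterochromatin, is rich in repeats and holds large families of NLR immune receptor genes, zinc finger genes and genes for small nuclear RNAs (the RNAs of the splicing machinery) and 5S ribosomal RNA. In wild strains it also carries a region linked to sex. The arm was taken here as every interval of the count table on chromosome 4 with a start at or above 28 Mb, which gave 1463 of 54036 intervals. Positions are on GRCz11 and are counted from 1.

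Accessibility was measured by bulk ATAC-seq, in which the Tn5 transposase cuts open chromatin, so that a more open region gives more reads. The input was cells other than heart muscle cells (nonCMs) of adult hearts at 7 days (from the injury area per the labels, whereas the study's methods name only the hearts), with 2 libraries named WT and 2 named Treatment. The labels give wild type as the genotype of both groups and list amputation for Treatment only, whereas the study's text sets tnfα mutant hearts against wild-type hearts, both after amputation, so genotype and amputation cannot be told apart as the difference between the groups. The label names are kept, and each difference is Treatment against WT. Strain, sex, age and the number of pooled animals were not given in the sources used here, nothing says that replicates came from separate animals, and p-values therefore measure only the spread between these libraries, which may be technical. Total counts were 16128000 and 16822284 for WT and 14736856 and 16558109 for Treatment.

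The arm held fewer intervals per unit of length than the rest of the table. It had 29.2 intervals per Mb over 50.1 Mb, against 41.9 per Mb on chromosome 4 below 28 Mb and 40.6 per Mb on the other chromosomes. Its intervals covered 21.4 Mb, or 42.7% of the arm, against 62.8% below 28 Mb and 60.6% elsewhere. The median gap between neighbours was 6087.5 bp on the arm, against 507.5 bp below 28 Mb and 480.0 bp on other chromosomes. Abutting neighbours numbered 180 on the arm, 533 below 28 Mb and 23413 on other chromosomes, and none overlapped. How the intervals were delimited is not given in the sources used here, so a wide interval need not be a single open region. Intervals on the arm were spaced more widely, while the width classes had similar shares there and elsewhere. Of the 1463, 649 (44.4%) were narrow (at most 1 kb), 209 were of middle width and 605 (41.4%) were wide (over 5 kb). The wide ones covered 20.7 Mb, and 113 of them were over 50 kb and alone covered 12.8 Mb. Narrow intervals covered only 0.176 Mb and had a median width of 164 bp, against 423 bp on other chromosomes.

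Median read density was low on the arm in every width class. Density is given as reads per kb per library, averaged over the 4 libraries. Wide arm intervals had a median density of 1.91 (quartiles 0.966 and 3.86), against 19.0 below 28 Mb and 14.6 on other chromosomes. Middle intervals had 1.79, against 30.7 and 33.7. Narrow intervals had 9.35, with quartiles of 0 and 151.9, against 179.0 and 176.0. Of the 605 wide arm intervals, 19 (3.14%) were above the median of wide intervals elsewhere. The narrow class was mixed, since 140 of its members (21.6%) were above the median elsewhere, and 17 (2.62%) passed 1000 reads per kb per library, against 2.06% elsewhere.

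**Figure D1:**
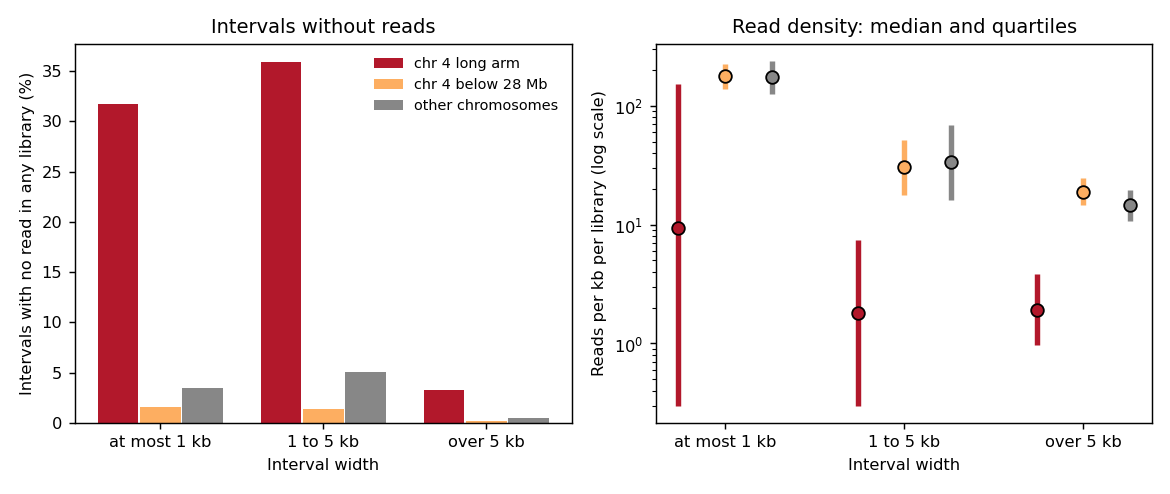
Share of intervals with no read in any library (left, bars from 0) and read density (right, log axis, reads per kb per library, point for the median and line for the quartiles) by interval width, for the arm, chromosome 4 below 28 Mb and the other chromosomes. The arm has the highest share without reads and the lowest median density in each width class, and its lower quartile in the 2 narrower classes is 0 and is drawn at the lower edge of the axis.

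Many arm intervals held no read at all. In all, 301 arm intervals (20.6%) had 0 reads in the 4 libraries together, against 0.938% below 28 Mb and 2.52% on other chromosomes. The arm held 2.71% of all intervals but 18.7% of the 1609 without reads, and a further 226 arm intervals had 1 to 10 reads in total. By width, 206 narrow intervals (31.7%), 75 middle ones (35.9%) and 20 wide ones (3.31%) had none. They often lay side by side, in 56 runs of at least 2 intervals, the longest of which had 18 intervals from 42604252 to 42661339. How an interval without reads entered the table is not given in the sources used here.

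Some of the empty intervals shared exact widths, as 113 of the 301 had a width of 107, 149 or 164 bp. Of the 99 arm intervals over 150 and up to 200 bp, 86 (86.9%) had no read, against 2.15% of intervals of that width on other chromosomes. Of the 84 arm intervals over 200 and up to 300 bp 1 (1.19%) had none. Up to 150 bp the shares were alike, at 33.0% on the arm and 34.8% on other chromosomes. Empty intervals also shared a width off the arm, where 102 of 167 intervals of exactly 115 bp had no read. Exactly 164 bp was the width of 69 arm intervals, and all 69 held 0 reads, against 6 intervals of that width elsewhere. Exactly 149 bp was the width of 24, all at 0 reads. Exactly 107 bp was the width of 179, against 20 elsewhere. Of these 179 arm intervals, 20 had no read, and the 179 held a median of 4 reads over the 4 libraries and at most 23. Some were evenly spaced, as 23 neighbouring pairs of the 179 intervals of 107 bp started 530 bp apart and 10 pairs of the 69 of 164 bp started 1291 bp apart, while no spacing recurred among the 24 of 149 bp.

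These 3 widths made up 272 (41.9%) of the narrow arm intervals, and none of the 272 had enough reads to be tested for a difference. The other 377 narrow arm intervals had a median width of 302 bp and a median density of 134.5 reads per kb per library, nearer the 176.0 of narrow intervals on other chromosomes, and 93 of them (24.7%) had no read. In the RefSeq gene list of another assembly (GRCz12tu), 258 genes are 164 bp long, all 258 are annotated as small nuclear RNA genes and 257 lie on chromosome 4. In the same list 682 of 686 genes of 107 bp are small nuclear RNA genes and 680 lie on chromosome 4. The width of 149 bp had no such match. Only 6 genes have that length, 4 of them pseudogenes, and 3 of the 6 lie on chromosome 4. Small nuclear RNAs are short structural RNAs that form the core of the spliceosome, and their genes occur in long arrays on this chromosome. Equal length is the only link made here, and whether these intervals are such genes was not tested.

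To ask where accessibility differed between the groups, the 54036 intervals were first filtered for enough reads. The filter did not ask for reads in both groups, so an interval nearly empty in either group could enter only through the other. The 50494 that passed were scaled and fitted together with edgeR's quasi-likelihood test. An interval was called at a Benjamini-Hochberg adjusted p under 0.05. Enough reads for the test were found in 809 of the 1463 arm intervals (55.3%), against 94.5% on other chromosomes. These were 221 of 649 narrow, 89 of 209 middle and 499 of 605 wide intervals, so the results below concern the members with reads and not the whole arm. A lower count in bulk cells can come, among other things, from fewer cells of a kind or from less signal per cell, and these cannot be told apart. Whether a lower count reflects less open chromatin was not tested.

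Of the 809, 87 were called lower in Treatment (10.8%) and 30 higher (3.71%). Over all 50494 tested intervals 0.721% were lower and 0.438% higher, and 1.16% were called in either direction. Unadjusted p-values under 0.05 numbered 207 lower and 71 higher on the arm, where all tested intervals gave 6.68% and 4.51%. Calls with a log2 fold change of at most -1 numbered 64, and those of at least 1 numbered 24, where the share over all tested intervals was 0.408% and 0.289%. Below 28 Mb on the same chromosome 4 intervals were lower and 3 higher of 1135 tested, and on other chromosomes 273 were lower and 188 higher of 48550. Over all widths together the lower side was the larger under every scaling, filter, tool and left-out library tried, with 49 to 97 lower and 13 to 45 higher. The counts depended on single libraries, with 49 lower and 17 higher without Treatment replicate 2, 54 lower and 20 higher without WT replicate 2, and 71 lower and 20 higher without Treatment replicate 1. DESeq2 called 51 lower and 13 higher, all 64 of them among the 117, where it called 0.499% of all tested intervals. With scaling factors from intervals of at most 1 kb, which moved the median of all tested intervals to 0.11, there were 80 lower and 45 higher, so that the lower share of calls went from 74.4% to 64.0%.

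Lower calls were mostly long. Wide intervals gave 63 lower and 10 higher of 499, where all wide intervals in the table gave 0.642% and 0.515%. Those over 50 kb gave 30 lower and 3 higher of 113, where 1.49% were called in either direction in the table. Narrow intervals gave 16 lower and 14 higher of 221, where the table gave 0.812% and 0.313%. That became 14 lower and 19 higher with scaling factors from intervals of at most 1 kb, so the larger side among narrow calls depended on the scaling. Middle intervals gave 8 lower and 6 higher of 89, where the table gave 0.711% and 0.528% (1.24% either way). The 87 lower calls had a median width of 29497 bp and covered 5.0 Mb, or 23.4% of the covered part of the arm. The 30 higher calls had a median width of 1074 bp and covered 0.345 Mb, or 1.61%. Their median log2 fold changes were -1.24 (range -9.20 to -0.38) and 1.51 (range 0.41 to 4.11).

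Over all tested arm intervals the median of scaled counts was also lower in Treatment, though summed counts were not lower in every stretch or width class. The median log2 fold change was -0.19, against -0.002 over all tested intervals, and both Treatment libraries lay below both WT libraries in 358 (44.3%) of the 809, where 21.4% of all tested intervals did so. The reverse held for 158 (19.5%), where the share of all tested intervals was 19.9%. In wide arm intervals the median was -0.23, against 0.04 for wide intervals on other chromosomes. In middle ones the median was -0.13, against 0.01 on other chromosomes. In narrow arm intervals it was -0.17, against -0.12 for narrow intervals on other chromosomes and -0.18 below 28 Mb, so that the narrow medians were close. Both Treatment libraries lay below both WT libraries in 41.6% of narrow arm intervals. That share was 36.3% below 28 Mb and 31.3% on other chromosomes.

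Per library, the median log2 CPM (counts scaled to library size, centred on each interval's mean) of the arm minus that of the rest of the genome was 0.06 and 0.14 in WT and -0.06 and -0.14 in Treatment. The groups did not overlap, and they differed by -0.20 (two-sided exact permutation test, p 0.333, the lowest value possible with 2 libraries a group). It was -0.27 in wide and -0.07 in narrow intervals. Set against chromosome 4 below 28 Mb it was -0.20, and -0.02 in narrow intervals, where the libraries of the groups overlapped (exact permutation p 0.667).

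The arm took 0.686% of all counts in WT replicate 1 (95% Wilson interval 0.682 to 0.690) and 0.718% (0.714 to 0.723) in WT replicate 2. For Treatment the share was 0.652% (0.648 to 0.656) and 0.626% (0.623 to 0.630). Both Treatment libraries were lower, by 0.0342 percentage points at the nearest, while replicates differed by 0.0323 points within WT and 0.0255 within Treatment. The means were 0.702% ± 0.023 and 0.639% ± 0.018 (SD, n = 2 each, exact permutation p 0.333). Reads are not independent molecules, so such intervals cover counting error only. Wide intervals went from 0.396% ± 0.017 to 0.340% ± 0.010 (SD, n = 2 each) and middle ones from 0.065% ± 0.005 to 0.072% ± 0.004. Without the called intervals the arm had 0.532% and 0.554% in WT and 0.524% and 0.506% in Treatment, a difference of -0.028 points with the same order of groups.

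The wide intervals with few reads carried the lower calls. Of 203 tested wide arm intervals under 2 reads per kb per library, 30 were lower and 3 higher, with a median log2 fold change of -0.42. Of 146 with a density from 2 to 4, 26 were lower and 3 higher, with a median of -0.41. Of the 150 denser ones, 91 from 4 to 8 gave 4 lower and 4 higher with a median of -0.03, and 59 above 8 gave 3 lower and 0 higher with a median of -0.08. Sparse wide intervals on other chromosomes went the other way, with 2 lower and 17 higher of 144 under 2 reads per kb and 5 lower and 21 higher of 317 from 2 to 4. The difference between the arm and the other chromosomes was not tested at matched density.

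Replicates on the arm spread more than elsewhere over all widths, but not in narrow intervals. The median biological coefficient of variation was 15.9%, against 11.7% on other chromosomes. The SD of the log2 ratio between replicates was 0.43 for WT and 0.46 for Treatment, against 0.36 and 0.36. A tested arm interval had a median of 58 reads per library, which gives a counting error of 13.1%, whereas the median elsewhere was 132. In narrow intervals the coefficient was 14.7% on the arm and 14.6% on other chromosomes, and the SD of the log2 ratio was 0.33 and 0.39 on the arm against 0.43 and 0.44. For intervals over 50 kb the arm had a coefficient of variation of 10.4%, against 5.24% on other chromosomes, with 179.5 and 1092 reads per library.

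Along the arm the changes were uneven (see the plot of tested intervals by distance from the start of the arm). From 28 to 60 Mb, 71 of 452 tested intervals were lower (15.7%) and 10 higher, with a median log2 fold change of -0.38. From 60 Mb to the end, 16 of 357 were lower (4.48%) and 20 higher (5.60%), with a median of -0.08, which became 0.04 with scaling factors from intervals of at most 1 kb, where the median of all tested intervals was 0.11. The 28 to 60 Mb stretch took 0.410% ± 0.018 of counts in WT and 0.343% ± 0.013 in Treatment (SD, n = 2 each, exact permutation p 0.333), and the rest took 0.293% ± 0.005 and 0.296% ± 0.006 (exact permutation p 0.667). The rest includes the cluster of higher calls at the far end. Its strongest interval alone had 465 and 474 reads in WT and 1951 and 2255 in Treatment. The share of the rest without that cluster was not computed, so the similar means do not show that its other intervals were unchanged. The boundary at 60 Mb was chosen after the values were seen, so the contrast between the stretches is a description. Without Treatment replicate 2, the first stretch had 38 lower and 2 higher.

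**Figure D2:**
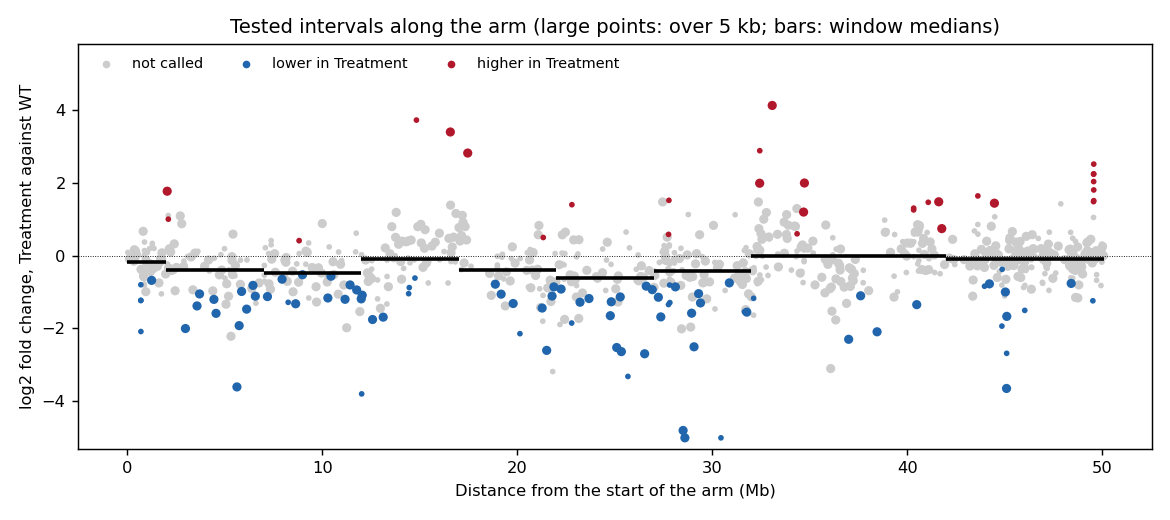
Log2 fold change (Treatment against WT) of the 809 tested arm intervals by distance from the start of the arm at 28 Mb, with called intervals in colour, larger points for intervals over 5 kb and black bars for the median of each 5 Mb window. Lower calls (87) are spread over the whole arm and are densest in its first 32 Mb, where the median is -0.38, and the 2 changes beyond -5 are drawn at -5.

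In windows of 5 Mb, counts were summed over the intervals that start in the window, and the 283 windows of the genome were tested together. Of the 11 arm windows 2 were called lower by edgeR and 0 higher (1.06% of all windows were called in each direction), 9 had an unadjusted p under 0.05, and arm windows were 9 of the 10 with the lowest log2 fold change in the genome. The window from 30 to 35 Mb had 5476 and 6190 reads in WT and 3417 and 3631 in Treatment, a log2 fold change of -0.66 (SE 0.06, edgeR adjusted p 0.01), the lowest of all 283 windows. The window from 40 to 45 Mb had 7211 and 7616 reads in WT and 5520 and 6167 in Treatment, a log2 fold change of -0.27 (SE 0.03, edgeR adjusted p 0.0186). In both windows the Treatment counts were below both WT counts, also as a share of the library. The lowest log2 fold change in a window off the arm was -0.11.

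The other 9 windows missed the threshold. Those from 28 to 30, 35 to 40, 45 to 50, 50 to 55, 55 to 60, 60 to 65, 65 to 70 and 70 to 75 Mb had log2 fold changes of -0.32, -0.33, -0.22, -0.13, -0.19, -0.04, -0.08 and -0.13. The last window, from 75 Mb, had 19018 and 20188 reads in WT and 19936 and 21951 in Treatment, a log2 fold change of 0.17 (edgeR adjusted p 0.0611), and was the only one of the 11 above 0. These calls depended on the tool and on single libraries. DESeq2 called 8 windows lower and 1 higher, there were 0 calls without either Treatment library, 5 lower without WT replicate 1 and 1 lower without WT replicate 2. Off the arm, DESeq2 called 19 of 272 windows, where the main fit called 4, and leaving out WT replicate 1 also raised that number. With the replicate number as a block 0 arm windows were called, and the window from 30 to 35 Mb had an edgeR adjusted p of 0.209. When the intervals called one by one were taken out, 0 windows were called and the log2 fold change from 30 to 35 Mb was -0.30 (edgeR adjusted p 0.26).

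**Figure D3:**
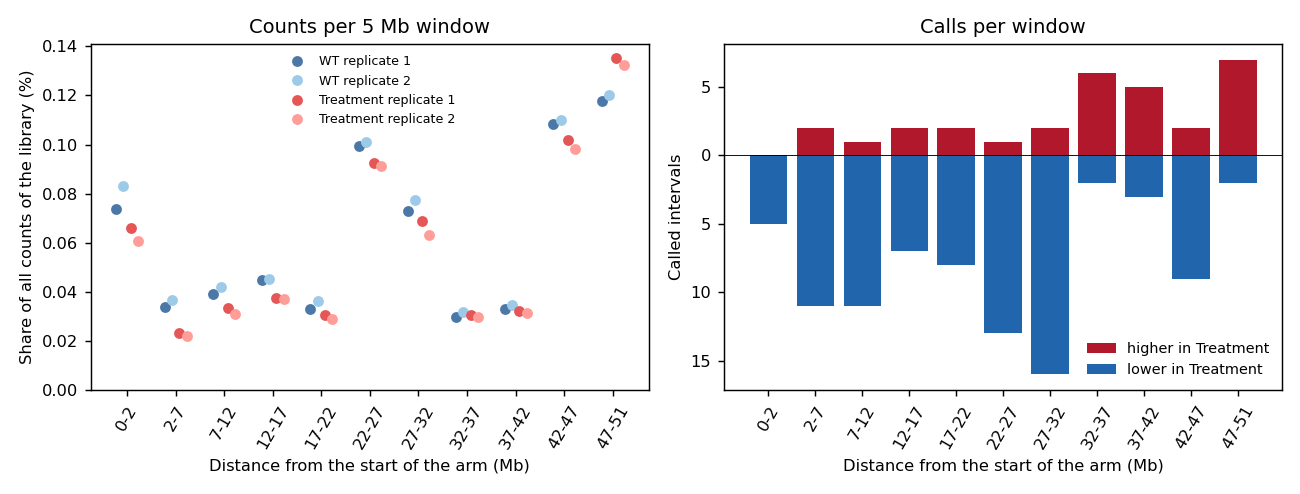
Share of all counts of each library (left, %) and number of intervals called higher (up) and lower (down) in Treatment (right) in the 11 windows of 5 Mb, named by distance from the start of the arm in Mb. Treatment libraries lie below both WT libraries in 9 of the 11 windows, the exceptions being 32 to 37 Mb from the start and the last. How many of the 283 windows of the genome do so was not counted, so the 9 have no base share beside them. The last window has 7 higher and 2 lower calls.

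The windows differed in what filled them. Lower calls were most frequent from 50 to 55 Mb, with 13 of 65 tested, from 30 to 35 Mb, with 11 of 59, from 55 to 60 Mb, with 16 of 87, and from 35 to 40 Mb, with 11 of 61. In these 4 windows 34 of 39, 35 of 43, 44 of 52 and 35 of 39 tested wide intervals had a negative log2 fold change. Of all tested wide intervals 64.9% were negative on the arm and 39.1% in the whole table. From 40 to 45 Mb, by contrast with these 4 windows, 15 of 41 wide intervals were negative and their median was 0.26, although the summed counts fell. Of 68 tested intervals there, 7 were called lower and 2 higher. Among the 7 was the 312 bp interval 42465082 to 42465393, with 1394 and 1301 reads in WT and 646 and 744 in Treatment. The whole window had 7211 and 7616 in WT and 5520 and 6167 in Treatment. From 60 to 65 Mb there were 2 lower and 6 higher of 83 tested, and 62 of the 201 intervals (30.8%) had no read. The final 2 windows were denser, with a median of 4.99 and 8.32 reads per kb per library in wide intervals, against 1.21 to 1.89 from 30 to 70 Mb, and had 5.65% and 3.70% of intervals without reads.

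Windows of 1 Mb resolved this further. Of 51 arm windows, 26 were called lower and 2 higher by edgeR in a fit of 1360 windows, where 2.72% of all windows were lower and 0.809% higher. From 28 to 41 Mb all 13 windows had a negative log2 fold change and 10 were called lower, and from 45 to 60 Mb 9 of 15 were called lower. Between them, from 41 to 45 Mb, 1 of 4 was called. The largest decreases were -1.12 (SE 0.10) from 33 to 34 Mb, -0.97 (SE 0.10) from 40 to 41 Mb, -0.84 (SE 0.10) from 34 to 35 Mb and -0.79 (SE 0.08) from 65 to 66 Mb.

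The window from 33 to 34 Mb had 1107 and 1313 reads in WT and 542 and 518 in Treatment. The window from 65 to 66 Mb had 1461 and 1530 reads in WT and 824 and 824 in Treatment. The groups were apart in both. The 2 windows called higher were 61 to 62 Mb, with 482 and 553 reads in WT and 610 and 763 in Treatment (log2 fold change 0.47, SE 0.10, edgeR adjusted p 0.00828), and 77 to 78 Mb, with 9138 and 9531 in WT and 10912 and 12324 in Treatment (0.38, SE 0.03, edgeR adjusted p 1.48e-09). The number of 1 Mb windows called lower was 11 without Treatment replicate 2, 17 without Treatment replicate 1 and 1 when the intervals called one by one were left out. It was 10 with the replicate number as a block.

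**Figure D4:**
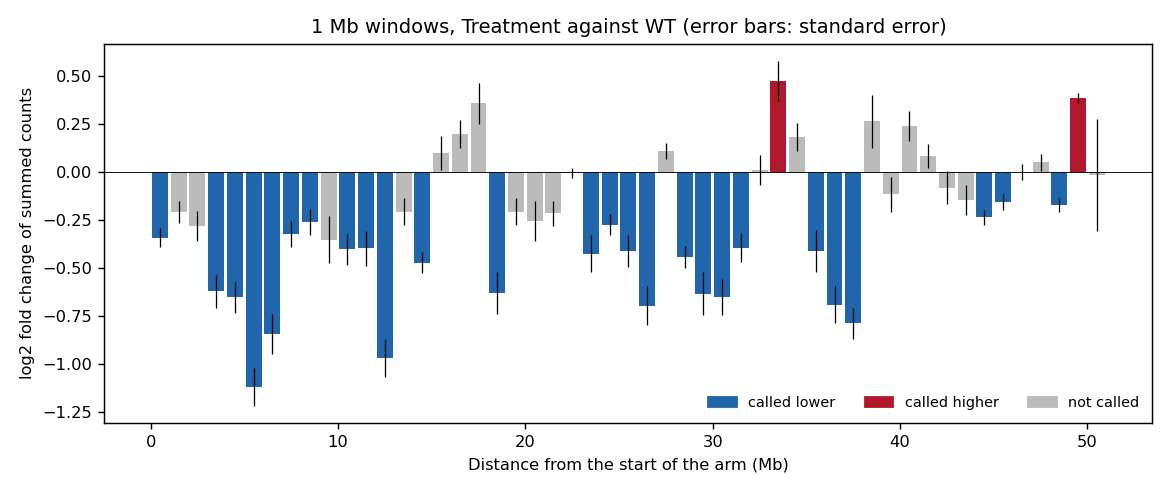
Log2 fold change (Treatment against WT) of counts summed in 51 windows of 1 Mb by distance from the start of the arm, with error bars for the standard error and colour for the edgeR call. The 26 windows called lower run from the start of the arm to its last part, while the 2 called higher are 33 and 49 Mb from the start.

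Single intervals were named by a rule: the strongest call in each direction in each 5 Mb window, the largest changes among well-covered intervals, the densest and the widest intervals, and those near 0 in one group. The densest was 50296689 to 50297424 (736 bp), with 8807 and 9038 reads in WT and 8277 and 9429 in Treatment, which alone held 8.24% of all reads of the arm. In CPM it had 541 ± 11 in WT and 567 ± 5 in Treatment (SD, n = 2 each), a log2 fold change of 0.07 (SE 0.05, edgeR adjusted p 0.642). It was not called, although both Treatment values were above both WT values in CPM. The widest was 58661331 to 59094319 (433 kb), with 816 and 920 reads in WT and 511 and 462 in Treatment, a log2 fold change of -0.75 (SE 0.10, edgeR adjusted p 2.13e-06).

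The largest decreases among well-covered intervals were in long, sparse ones. The interval 33574463 to 33679928 (105.5 kb) had 274 and 278 reads in WT and 13 and 30 in Treatment, a log2 fold change of -3.60 (SE 0.25), which was -4.23 without Treatment replicate 2. It lies in the 1 Mb window with the largest decrease, and its 4 counts make up 552 of the 2420 WT reads and 43 of the 1060 Treatment reads there. The interval 30908845 to 31064584 (155.7 kb) had 396 and 398 reads in WT and 83 and 105 in Treatment (log2 fold change -2.00, SE 0.17). In both the WT libraries nearly coincide and lie 3.70-fold or more above the nearer Treatment library in CPM.

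The interval 64981411 to 65010907 (29.5 kb) had 254 and 239 reads in WT and 43 and 52 in Treatment (log2 fold change -2.30, SE 0.22). The interval 40541471 to 40621756 (80.3 kb) had 345 and 335 reads in WT and 104 and 86 in Treatment (-1.76, SE 0.18). A much shorter and denser one, 72853012 to 72854113 (1.1 kb, 274.5 reads per kb per library), had 452 and 519 reads in WT and 132 and 107 in Treatment (-1.94, SE 0.16). Of these 5, edgeR's adjusted p ran from 6.22e-14 to 1.81e-09, and each was called under every setting and left-out library tried.

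A lower read count was outside the cover rule but larger at 56454040 to 56558715 (104.7 kb), with 245 and 230 reads in WT and 5 and 11 in Treatment, a log2 fold change of -4.80 (SE 0.31, edgeR adjusted p 3.23e-15). Close to it, 56590242 to 56604233 (14.0 kb) had 76 and 75 reads in WT and 0 and 0 in Treatment. With the Treatment group set to a floor of 3 counts in all, this is at least 47.8-fold lower in Treatment. The intervals are 31.5 kb apart, and both are nearly empty in both Treatment libraries.

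Near-absence in one group concerned few arm intervals, and its direction depended on the limits. With at most 3 reads in one group and at least 15 in each library of the other, 3 of 1463 arm intervals qualified. All 3 were low in Treatment and passed the read filter only through WT. Of 51400 intervals on other chromosomes, 9 were low in Treatment and 25 in WT. The second arm interval, 58446500 to 58448785, had 22 and 15 reads in WT and 0 and 0 in Treatment, at least 11.7-fold lower. The last, 40022273 to 40023966, had 29 and 18 reads in WT and 1 and 2 in Treatment, a 14.9-fold ratio. The call on 58446500 to 58448785 was lost without Treatment replicate 2 (edgeR adjusted p 0.0531). That on 40022273 to 40023966 was lost without Treatment replicate 1, Treatment replicate 2 or WT replicate 1 (edgeR adjusted p 0.0698, 0.0597 and 0.0811) and with DESeq2 (adjusted p 0.105). With limits of 5 and 10 reads the arm had 8 such intervals, and with 1 and 20 it had 1. The 8 were not all low in Treatment. Low in WT were 42830392 to 42834264 (1 and 3 reads in WT, 19 and 34 in Treatment) and 44568015 to 44573692 (3 and 2 in WT, 23 and 29 in Treatment). Both passed the read filter only through Treatment.

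Higher intervals were fewer and mostly short. The largest rise in log2 fold change was at 61071556 to 61081125 (9.57 kb), with 3 and 8 reads in WT and 78 and 107 in Treatment (4.11, SE 0.43, edgeR adjusted p 3.66e-09), and 4.93 without WT replicate 2. It lies in the 1 Mb window called higher. The interval 45458619 to 45465370 (6.75 kb) had 5 and 12 reads in WT and 55 and 59 in Treatment (2.81, SE 0.44), and 3.52 without WT replicate 2. Both started from very few WT reads, and neither could have passed the read filter on its WT libraries alone. Their large changes are therefore partly a result of how they entered the test.

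The other calls named for their window were of like kind. Among the lower ones, 35130120 to 35255550 (125.4 kb) had 309 and 410 reads in WT and 150 and 161 in Treatment, a log2 fold change of -1.13 (SE 0.16). For 46770787 to 46981857 (211.1 kb) the counts were 432 and 534 in WT and 260 and 269 in Treatment, a log2 fold change of -0.79 (SE 0.13). The longest of this group, 65487457 to 65732222 (244.8 kb), had 603 and 607 reads in WT and 282 and 249 in Treatment, a log2 fold change of -1.11 (SE 0.12). These 3 were long intervals in which both Treatment libraries lay below both WT libraries, and each was called in every setting.

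The shorter 53095146 to 53109116 (14.0 kb) had 68 and 86 reads in WT and 16 and 9 in Treatment, a log2 fold change of -2.52 (SE 0.39), and was called in every setting in which it could be tested. The narrow 71962101 to 71962529 was named as a large decrease among well-covered narrow intervals, not for its window. It had 192 and 296 reads in WT and 90 and 169 in Treatment, a log2 fold change of -0.84 (SE 0.20). Here replicates differed almost as much as the groups, and DESeq2 did not call it (adjusted p 0.24). Without Treatment replicate 1 and without WT replicate 2 its edgeR adjusted p was 0.347 and 0.43.

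Several higher calls named for their window rested on few reads. The interval 42830392 to 42834264 (3.87 kb) had 1 and 3 reads in WT and 19 and 34 in Treatment, a log2 fold change of 3.71 (SE 0.72), which was 4.59 without WT replicate 2 and was not called without Treatment replicate 2 (edgeR adjusted p 0.155). The interval 30045493 to 30057608 (12.1 kb) had 15 and 13 reads in WT and 39 and 52 in Treatment, a log2 fold change of 1.76 (SE 0.42), and its edgeR adjusted p was 0.277 without Treatment replicate 2 and 0.14 without WT replicate 2. The narrow 50802769 to 50803022 had 27 and 21 reads in WT and 45 and 76 in Treatment, a log2 fold change of 1.39 (SE 0.36), with an edgeR adjusted p of 0.581 without Treatment replicate 2 and 0.25 without WT replicate 2. In each of these the groups did not overlap, but the calls went with single libraries. DESeq2 called 42830392 to 42834264 (adjusted p 0.0421) but not 30045493 to 30057608 (0.194) or 50802769 to 50803022 (0.335).

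Others had more reads or a smaller spread. The narrow 69076908 to 69077191 had 46 and 46 reads in WT and 104 and 137 in Treatment, a log2 fold change of 1.46 (SE 0.26), and was called in every setting. The narrow 71620183 to 71620587 had 18 and 30 reads in WT and 70 and 71 in Treatment, a log2 fold change of 1.63 (SE 0.34), and of the settings that tested it only DESeq2 did not call it (adjusted p 0.0505). The dense 36816686 to 36817028 (343 bp, 1500.7 reads per kb per library) had 465 and 446 reads in WT and 528 and 620 in Treatment, a log2 fold change of 0.41 (SE 0.11, edgeR adjusted p 0.0408). This smallest of the higher calls was lost under several settings, with an edgeR adjusted p of 0.132 without Treatment replicate 1, 0.39 without Treatment replicate 2 and 0.282 without WT replicate 2.

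Among the 5 largest increases with good cover, 2 lay away from the end of the arm. DESeq2 called neither 69712223 to 69829213 (adjusted p 0.156) nor 62349743 to 62351757 (0.242). The latter was also lost with scaling factors from intervals over 20 kb (edgeR adjusted p 0.0523) and with loess offsets (edgeR adjusted p 0.0533). The long 69712223 to 69829213 (117.0 kb) had 123 and 147 reads in WT and 192 and 235 in Treatment, a log2 fold change of 0.74 (SE 0.18, edgeR adjusted p 0.0245). It was not called without Treatment replicate 1, Treatment replicate 2 or WT replicate 1 (edgeR adjusted p 0.0555, 0.282 and 0.0908). The interval 62349743 to 62351757 (2.02 kb) had 235 and 210 reads in WT and 335 and 300 in Treatment, a log2 fold change of 0.60 (SE 0.15, edgeR adjusted p 0.0342), and was not called without Treatment replicate 1 (0.455) or WT replicate 2 (0.269).

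A cluster of higher intervals lay at the far end of the arm. Between 77551676 and 77564205, a span of 12.5 kb, 7 intervals were called higher and they make up all 7 higher calls of the window from 75 Mb. They also lie in the 1 Mb window from 77 to 78 Mb, which was called higher. With the intervals called one by one left out, 0 arm windows of 1 Mb were called higher. The strongest of the 7 intervals, 77560248 to 77561278 (1031 bp), had 465 and 474 reads in WT and 1951 and 2255 in Treatment, a log2 fold change of 2.24 (SE 0.08). Its neighbours 77555829 to 77556120, with 76 and 67 reads in WT and 298 and 339 in Treatment, and 77559371 to 77559684, with 117 and 79 in WT and 398 and 358 in Treatment, rose by 2.23 (SE 0.19) and 2.03 (SE 0.18) on the log2 scale. In CPM the lowest Treatment value was 4.58, 4.28 and 2.96 times the highest WT value.

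The other 4 of the 7 had fewer reads. For 77551676 to 77552017 there were 38 and 26 reads in WT and 88 and 81 in Treatment, a log2 fold change of 1.48 (SE 0.31). For the neighbouring trio from 77562651 to 77564205 there were 65 and 68 reads in WT and 229 and 191 in Treatment, with log2 fold changes from 1.5 to 2.51. All 7 adjusted p-values by edgeR ran from 3.27e-24 to 0.00986. The rise did not reach the next long interval, 77580532 to 77680276 (99745 bp), with 2032 and 1875 reads in WT and 1768 and 2201 in Treatment (log2 fold change 0.10, edgeR adjusted p 0.659). On the other side, 77517294 to 77517944 had 111 and 130 reads in WT and 51 and 45 in Treatment, a log2 fold change of -1.24 (SE 0.26, edgeR adjusted p 0.00482), which was lost without Treatment replicate 2 (adjusted p 0.125).

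**Figure D5:**
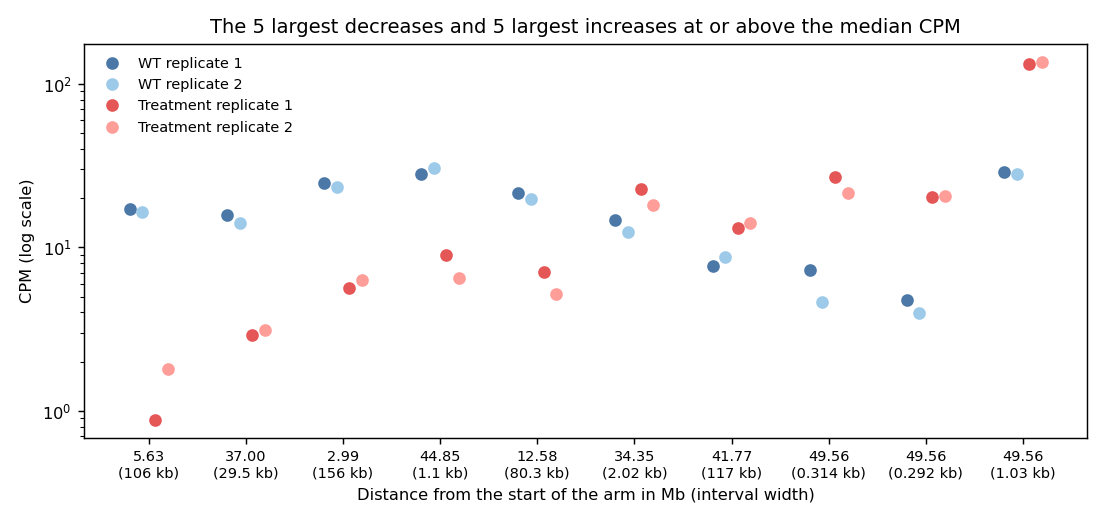
CPM (log axis) in each of the 4 libraries for the 5 largest decreases and 5 largest increases among called arm intervals at or above the median CPM of all tested intervals, named by distance from the start of the arm in Mb and by width. The rule that chose these intervals required that the groups do not overlap. Treatment points therefore lie below both WT points for the 5 on the left and above them for the 5 on the right. The last 3 on the right lie in the cluster at the far end.

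A second group of neighbours lay at the near end and went down. From 28693264 to 28703979, 4 of 6 intervals were called lower, and the other 2, of 81 and 74 bp, had too few reads to be tested. The first of them (4.85 kb, 236.9 reads per kb per library) had 1272 and 2017 reads in WT and 721 and 590 in Treatment, a log2 fold change of -1.23 (SE 0.11, edgeR adjusted p 1.74e-10). The other 3 had 501 and 761, 101 and 143, and 153 and 248 reads in WT, and 355 and 326, 29 and 25, and 79 and 82 in Treatment. WT replicate 2 was the highest library in all 4. DESeq2 did not call the first (adjusted p 0.125).

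Calls next to each other in the table, in the same direction and at most 1 kb apart, formed 5 runs with 12 intervals, 2 of them lower and 3 higher, and 8 runs with 18 intervals at most 10 kb apart. Another place where adjacent intervals fell together was 73085993 to 73109752, where 3 abutting intervals of 10994, 494 and 12272 bp had 373 and 329 reads in WT and 55 and 78 in Treatment together, with log2 fold changes from -3.65 to -1.67. A pair of abutting intervals from 60428812 to 60437703 rose, with 34 and 31 reads in WT and 167 and 201 in Treatment. By distance alone, whatever lay between, 20 of the 117 calls had a call of the same direction within 1 kb, in 12 pairs of which 8 were lower.

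In 5 of the 8 lower pairs an uncalled interval lay between, and 3 of these 5 were tested. All 3 were short and far denser than the long intervals they separated. Between 31535449 to 31625811 (146 and 174 reads in WT, 54 and 62 in Treatment) and 31626087 to 31795106 (422 and 538 in WT, 222 and 214 in Treatment) lay a 275 bp interval with 147 and 120 reads in WT and 125 and 150 in Treatment, a log2 fold change of 0.12 (edgeR adjusted p 0.888). The long intervals on both sides were called lower, with log2 fold changes of -1.38 and -1.05.

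Between 32429579 to 32465999 and 32466277 to 32646394, called lower with log2 fold changes of -1.20 and -1.59, a 277 bp interval had 66 and 53 reads in WT and 54 and 53 in Treatment (-0.08, edgeR adjusted p 0.958). Between 55187370 to 55288209 and 55288506 to 55437051, called lower with -1.15 and -1.68, a 296 bp interval had 107 and 77 reads in WT and 62 and 92 in Treatment (-0.19, edgeR adjusted p 0.847). In all 3 the counts of the groups overlapped in the short interval, and they were apart in the long intervals beside it. The difference between a short interval and its neighbours was not tested.

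Close neighbours could also go opposite ways. The narrow interval 55756974 to 55757321 had 298 and 318 reads in WT and 102 and 128 in Treatment, a log2 fold change of -1.35 (SE 0.17, edgeR adjusted p 5.61e-07). After a gap of 1.92 kb, 55759237 to 55761784 (2.55 kb), the second most covered interval of the arm, had 2637 and 2671 reads in WT and 3709 and 3789 in Treatment, a log2 fold change of 0.58 (SE 0.06, edgeR adjusted p 2.33e-09). The summed window from 55 to 56 Mb was not called (log2 fold change 0.11). Of the 16 narrow intervals called lower, 13 had a wide tested interval within 50 kb and 10 of those neighbours were negative too. Of the 14 called higher, 12 had one and 6 of those were positive. Of 157 such neighbours of narrow intervals that were not called, 100 (63.7%) were negative, so these counts do not set the called ones apart.

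Modest changes also occurred in dense short intervals. The interval 42465082 to 42465393 (312 bp, 3273.2 reads per kb per library) had 1394 and 1301 reads in WT and 646 and 744 in Treatment, a log2 fold change of -0.88 (SE 0.08, edgeR adjusted p 2.53e-10). The interval 49335251 to 49335453 (203 bp, 3609.6 reads per kb per library) had 683 and 570 reads in WT and 756 and 922 in Treatment, a log2 fold change of 0.49 (SE 0.10, edgeR adjusted p 0.00227). The latter call was lost without either of WT replicate 2 and Treatment replicate 2 (adjusted p 0.124 and 0.084). Another of like density, 69113927 to 69114250, had 1167 and 1270 reads in WT and 1003 and 1172 in Treatment and was not called (log2 fold change -0.09, edgeR adjusted p 0.725).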

How the data were processed

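The authors used Trim Galore for trimming and Bowtie2 for alignment to GRCz11, discarded mitochondrial and non-unique reads, and ran Genrich on both replicates of each condition (q-value cutoff 0.05). Keeping only uniquely mapped reads can lower counts in repeats. How the peak sets were joined, the counting program, the handling of duplicates and any shift of reads for Tn5 are not given in the sources used here. The deposited values are raw read counts, 1 column a library, without normalization, and 0 columns were left unused. The summed counts (14736856 to 16822284 per library) cover intervals only and are not the sequencing depth.

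In R 4.3.3 the whole table went through edgeR 4.0.16: filterByExpr at a minimum count of 10, TMM scaling and the quasi-likelihood test of group with no covariate. P-values were adjusted by Benjamini-Hochberg over all tested intervals. Standard errors of log2 fold changes were derived from the F statistic, and log2 CPM used a prior count of 2. Windows were tested in the same way on summed counts. Single values per library were compared by exact two-sided permutation over the 4 libraries. RefSeq (GRCz12tu) served for gene lengths and classes only.

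Named intervals were, in each 5 Mb window, the call with the smallest adjusted p in each direction, the 5 largest changes in each direction among calls with a mean CPM of at least the median of tested intervals (8.12) and groups that do not overlap, the 3 largest of these up to 1 kb, the 3 densest of at least 200 bp, the widest, and every near-zero interval. Other intervals (the clusters at both ends of the arm, the abutting runs, the short intervals between lower calls, and the long interval next to the higher cluster) were chosen after their values were seen. Planned counts by gene class, motif and cell type marker were not run, as no GRCz11 annotation or sequence was used here, and the labelled cell type could not be checked. Alternatives were other scalings (DESeq2 size factors, total count, upper quartile, TMM from narrow intervals, from those over 20 kb or without chromosome 4), other filters and thresholds, DESeq2 1.42.0, limma 3.58.1 with voom, a replicate block, other windows and leaving out each library. Loess offsets, the share without called intervals or the densest interval, and all alternatives to the 1 Mb windows were added after seeing the data. The arm, the lists and the tests were chosen with earlier results of these data known.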

Additional observations from a re-analysis of the deposited data

How the results depend on the processing

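No call reversed among the named intervals. The 34 that were called kept direction in 534 of 534 comparisons with an alternative and their call in 497. Of these intervals 17 were called in every setting, and 4 more in every setting that tested them. The arm fell relative to the rest of the genome in every setting tried (-0.26 to -0.16 leaving out 1 library). Only 809 of 1463 intervals could be tested, and with 2 libraries a group no permutation test could reach 0.05. Without a GRCz11 sequence, mappability was not tested. The causes of the changes below were not tested.

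DESeq2 called 51 intervals lower and 13 higher, with 6 narrow higher, 36 wide lower and 3 wide higher, and 8 windows of 5 Mb lower and 1 higher. Scaling from intervals of at most 1 kb gave 19 wide higher calls, 14 narrow lower and 19 narrow higher calls, and an arm median of -0.08 where all tested intervals had 0.11. A mean of at least 50 counts gave 19 higher calls, 4 of them wide, no filter gave an arm median of -0.29, and an adjusted p under 0.1 gave 16 wide higher calls. For 5 Mb windows, voom gave 7 lower and 1 higher, total count 1 higher, 10 Mb windows 1 lower and 1 Mb windows 26 lower and 2 higher. Off the arm, DESeq2 called 19 and voom 11 of 272 windows of 5 Mb, where the main fit called 4. Without called intervals 0 windows of 5 Mb were lower, and 1 of 1 Mb was lower and 0 higher. Near-zero intervals numbered 8 or 1 under other limits, and runs 8 within 10 kb.

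With 1 library left out, calls ranged from 49 to 97 lower and from 17 to 32 higher, 8 to 14 narrow higher, 33 to 72 wide lower, 4 to 12 wide higher, an arm median of -0.27 to -0.16, 0 to 5 windows of 5 Mb lower, and 11 to 31 lower and 1 to 3 higher of 1 Mb. With the replicate number as a block, 95 intervals were lower and 34 higher (all 117 calls shared), 0 windows of 5 Mb lower and, of 1 Mb, 10 lower and 1 higher. Replicates of equal number did not deviate together (r = -0.05 over the arm), which does not show whether they were prepared together.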
